A study of Mus musculus with 24 samples.

Results

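The mature miRNAs carried by serum extracellular vesicles (EVs) of control mice are described here from 6 small RNA libraries, the Control group of a series of 24. EVs are membrane vesicles that cells shed into body fluids, and their miRNA cargo is widely used as a readout of the tissues that feed the circulation. The 6 libraries came from 6 wild-type C57BL/6 male mice of 14 to 16 weeks that received subcutaneous saline and no operation. The other 18 libraries, from mice at 3 times after tibia surgery, were not compared. EVs were prepared from clotted serum by precipitation and a purification column, and miRNA outside this fraction was not analysed here. The authors caution that precipitation might also bring along some miRNAs bound to lipoproteins. Each library is 1 mouse. The values are counts of reads per mature miRNA. They are given as CPM, the count over the total of the library, on a scale where 10000 CPM are 1% of its counts. The miRNAs described are the 258 of 1966 listed that reached at least 10 CPM in 3 or more of the 6 libraries.

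A miRNA is cut by Drosha and Dicer from a hairpin precursor, whose 2 arms can both give a mature product. The product of the 5′ arm is named 5p and that of the 3′ arm 3p. Usually 1 arm is loaded into an Argonaute protein and kept, and the other is degraded. The loaded miRNA finds its targets through the seed, bases 2 to 8 from its 5′ end, so that miRNAs with the same seed form a family. In blood, miR-486 and miR-451a are known from red cells, miR-223 from myeloid cells and platelets, miR-122 from liver, and miR-1 and miR-133 from heart and skeletal muscle.

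Mature sequences of all but 36 of the 258 miRNAs were found in the RefSeq table for GRCm38.p6, and the miRNAs with a sequence held 68.0% of the counts on average. The sequences below are shown 5′ to 3′ with the seed in capitals. They are the members of the most abundant family, let-7, in which 9 miRNAs share 1 seed and single bases further along decide the name to which a read is assigned.
let-7a-5p: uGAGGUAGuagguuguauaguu
let-7f-5p: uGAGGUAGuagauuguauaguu
let-7c-5p: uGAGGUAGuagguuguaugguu
let-7b-5p: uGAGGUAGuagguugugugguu
let-7g-5p: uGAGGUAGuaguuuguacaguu
let-7i-5p: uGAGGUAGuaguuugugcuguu
let-7d-5p: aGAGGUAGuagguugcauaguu
miR-98-5p: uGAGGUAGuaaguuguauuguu
let-7e-5p: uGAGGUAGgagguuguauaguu

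The other abundant miRNAs with a sequence in the table each have a seed of their own or share it with few members. Those among the 20 most abundant are shown next, because they hold a large part of the counts.
miR-21a-5p: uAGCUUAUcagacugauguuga
miR-23a-3p: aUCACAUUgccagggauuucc
miR-451a: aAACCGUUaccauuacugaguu
miR-191-5p: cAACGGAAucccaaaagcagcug
miR-24-3p: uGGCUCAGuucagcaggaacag
miR-92a-3p: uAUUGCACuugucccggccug
miR-25-3p: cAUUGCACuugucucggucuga
miR-26a-5p: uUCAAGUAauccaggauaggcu
The remaining members of the 20 are miR-486b-5p, miR-122-5p, miR-1a-3p, miR-143-3p, miR-486a-5p and miR-30d-5p, which are given by name.

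Total counts ranged from 63956 to 263211 per library. A count of 0 therefore allows up to 3 counts, or 11.4 to 46.9 CPM depending on the library, and 1 read amounted to between 3.80 and 15.6 CPM. In Control replicates 2 and 3 a single read already reached the minimum of 10 CPM. Such limits and the binomial intervals below cover counting error only, with each read taken as independent. Spearman's rho over the 258 miRNAs was between 0.758 and 0.863 for the 15 pairs of libraries (median 0.835). Replicate 4 stood apart with the lowest median rho (0.796) and the fewest miRNAs with a count (213, against 253 to 304 in the others). With the counts of each library thinned to the smallest total, replicate 4 still had the fewest, 207.6 against 253 to 292. The deposited libraries were all kept.

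The 258 miRNAs held between 99.66% and 99.88% of the counts of each library. Of them, 57.4% had a count in every library and 55.8% reached 10 CPM in all 6, while 30 reached it in exactly 3, 42 in 4 and 42 in 5. In the table, 188 further miRNAs had at least 1 count and together 0.252% of the counts, and 1520 had none in these libraries. At the edge of the rule, the third highest library of miR-700-3p and of miR-676-5p was at 10.5 CPM and that of miR-702-3p at 11.4 CPM. Just outside, miR-708-3p, miR-301a-3p and miR-671-3p were at 9.53 CPM, which was 1 read in replicate 6. For 30 of the 258 the mean count was below 5.

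A small number of miRNAs made up most of the miRNA counts. The counts are of mature miRNAs only, which the authors found to be a minor part of the RNA in the control libraries. The mean shares of the 10 most abundant summed to 47.3% of the counts, those of 20 to 67.7%, of 50 to 89.8% and of 100 to 97.7%. Ranked by mean share, 11 miRNAs held 50% of the counts, 51 held 90% and 151 held 99%. Within single libraries, ranked on their own values, 8 to 12 miRNAs held 50% and 42 to 53 held 90%. The 28 with a mean CPM of 10000 or more held 76.5%, and the 83 with a mean below 100 CPM held 0.446%.

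**Figure D1:**
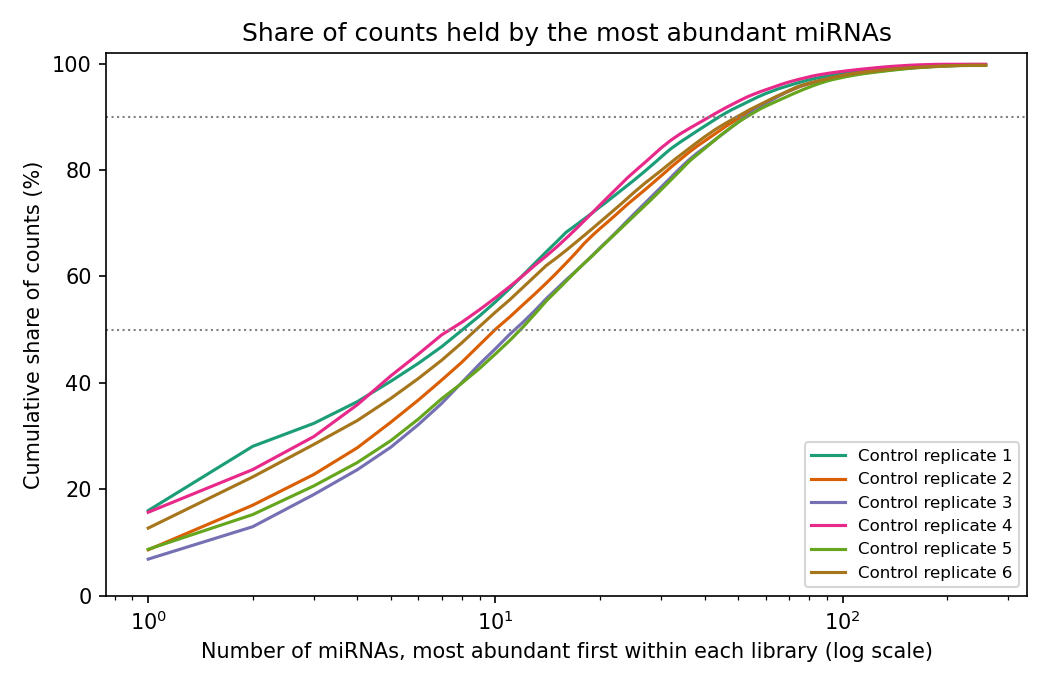
Cumulative share of counts (y axis, %) against the number of miRNAs, ranked from the most abundant within each library (x axis, log scale), with 1 line per control library and dotted lines at 50% and 90%. The lines cross 50% at 8 to 12 miRNAs and 90% at 42 to 53.

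The miRNA with the highest mean was miR-486b-5p, a red cell miRNA, with 8.02% ± 2.29 of the counts (SD, n = 6). Its share was lowest in replicate 4 (5.97%), had a median of 7.63% and was highest in replicate 1 (12.1%). It was among the 4 most abundant miRNAs in all 6 libraries. The related miR-486a-5p, rank 13, held 2.71% ± 0.777 and followed it closely, with a ratio of miR-486b-5p to miR-486a-5p between 2.87 and 3.06 in the 6 libraries. How the authors assigned reads that match more than 1 mature miRNA is not given in the sources used here, so that the split between both names is uncertain. The ranks of both names depend on that split.

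The second, miR-122-5p, the most abundant miRNA of hepatocytes, had a mean of 7.74% with an SD of 7.81, because the libraries lay at very different levels. It held 16.0% of the counts in replicate 1 (95% Wilson interval 15.9% to 16.1%), 15.7% in replicate 4 and 12.7% in replicate 6. It held 0.367% in replicate 2 (0.323% to 0.417%), 0.998% in replicate 3 and 0.693% in replicate 5. No library lay between 0.998% and 12.7%, and the highest was 43.5-fold above the lowest. It was the most abundant miRNA of all in replicates 1, 4 and 6 and had ranks 50, 29 and 37 in replicates 2, 3 and 5. As its mean rests on 3 of 6 libraries, the first rank changed between both, and miR-122-5p came first in place of miR-486b-5p with TMM-scaled library sizes, with DESeq2 size factors and without replicate 2, 3 or 5. This order is that of the names as listed, with the split between miR-486b-5p and miR-486a-5p uncertain.

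Next came miR-21a-5p, a miRNA expressed in many cell types, with 6.34% ± 2.44 (3.36% to 9.62%, median 6.13%). It led replicate 2 with 8.62%, whereas miR-486b-5p led replicates 3 and 5 with 6.87% and 8.72%. The muscle miRNA miR-1a-3p held 4.27% ± 1.46, with a lowest share of 2.49%, a median of 3.86% and a highest of 6.52%. For miR-23a-3p, which is transcribed with miR-24 and miR-27a, the share was 3.99% ± 1.53, and for let-7a-5p it was 3.97% ± 1.30. From the first rank to the last of the 20, each mean exceeded the next by less than its own SD, so that the order of neighbours is not fixed by these libraries. The red cell miRNA miR-451a held 3.39% ± 1.30, miR-191-5p 3.36% ± 1.30 and let-7f-5p 3.21% ± 1.17. The share of miR-24-3p was 3.0% ± 0.748. The smooth muscle miRNA miR-143-3p had the same mean with an SD of 2.75, and without replicate 4, its highest library, its mean was 1.99%.

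The further miRNAs of the 20 were let-7c-5p (2.76%), let-7b-5p (2.27%), let-7g-5p (2.25%), let-7i-5p (1.68%), miR-92a-3p (1.54%), miR-25-3p (1.5%), miR-30d-5p (1.43%) and miR-26a-5p (1.32%). In all 6 libraries, 12 of the 20 were among the 20 most abundant. A further 11 miRNAs entered the first 20 of at least 1 library. They were miR-133a-3p, miR-30a-5p, miR-29a-3p, let-7d-5p, miR-16-5p, miR-423-5p, miR-128-3p, miR-22-3p, miR-140-3p, miR-221-3p and miR-30e-5p. The muscle miRNA miR-133a-3p ranged from 0.401% in replicate 4 to 2.39% in replicate 5, where it had rank 14. Likewise miR-30a-5p ranged from 0.448% in replicate 1 (rank 41) to 2.38% in replicate 4 (rank 8).

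**Figure D2:**
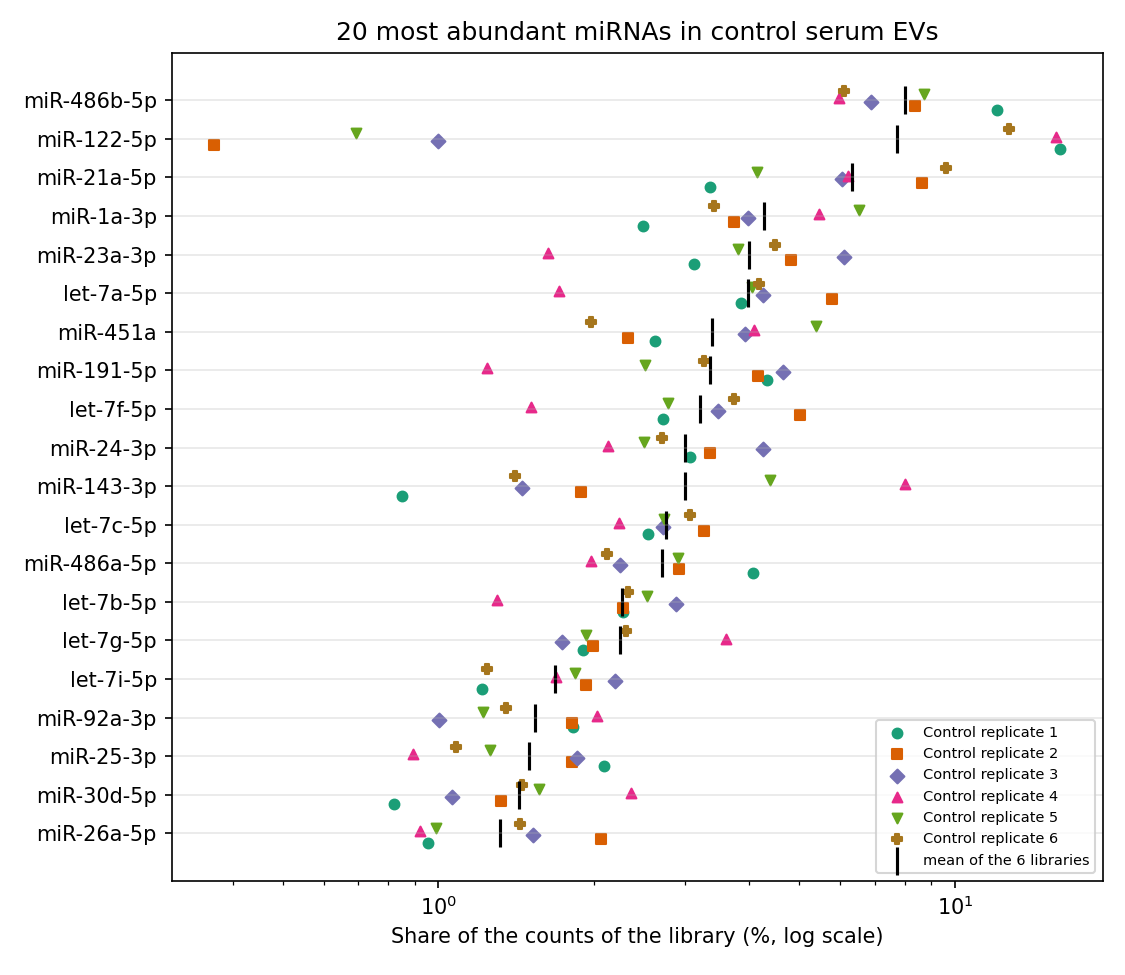
Share of the counts of each library (x axis, %, log scale) for the 20 miRNAs with the highest mean (y axis, in rank order), with 1 symbol per control library and a vertical bar at the mean of the 6. For miR-122-5p 3 libraries lie between 12.7% and 16.0% and the other 3 between 0.367% and 0.998%, whereas those of let-7c-5p lie between 2.24% and 3.27%.

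Grouped by seed, the miRNAs with a sequence had 177 different seeds, of which 24 were shared by 69 of them. The let-7 family printed above held 17.5% ± 3.21 of all counts, lowest in replicate 4 (12.7%), with a median of 17.9% and a highest share of 22.2%. Within it let-7a-5p made up 22.6% of the family, and 6 of its 9 members were among the 20 most abundant miRNAs. The members miR-98-5p (0.164%) and let-7e-5p were the least abundant, and let-7a-5p exceeded let-7e-5p, which differs from it by 1 base, by 19.7- to 52.2-fold. The ratio of let-7f-5p to let-7a-5p was between 0.686 and 0.895 in the 6 libraries, and that of let-7a-5p to let-7c-5p between 0.765 and 1.77.

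Among the seeds shared by several miRNAs with a sequence, AUUGCAC of miR-92a-3p and miR-25-3p came next to let-7 and held 3.04% ± 0.606. The seed GUAAACA of miR-30a-5p, miR-30c-5p and miR-30e-5p held 2.95% ± 1.1, and this sum does not hold miR-30b-5p and miR-30d-5p, which are given by name only. For the seed UCAAGUA of miR-26a-5p and miR-26b-5p the share was 1.73% ± 0.486. The miR-15/16 seed AGCAGCA had 6 members with 1.36% ± 0.259, of which miR-16-5p made up 79.3%. Counts were thus spread over members to different degrees, with miR-92a-3p at 50.6% of its family and miR-26a-5p at 76.2%.

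Members with nearly the same sequence cannot always be told apart by reads. Among the miRNAs with a sequence, 13 pairs had the same mature sequence or differed by 1 base at equal length. The mature sequences of miR-199a-3p and miR-199b-3p are the same, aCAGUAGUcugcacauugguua, but they were listed with 1800 and 340 counts over the 6 libraries and with ratios between 4.2 and 7.0. A read of this sequence cannot be given to 1 of both names, so that their levels are uncertain. For miR-103-3p, which the study used as its reference in quantitative PCR, and for miR-107-3p, which differ by 1 base, the ratio was between 2.90 and 6.92.

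Compared with the other listed miRNAs, the 258 more often began with U. Of those with a sequence, 47.7% (106 miRNAs) had this first base, against 39.9% of 1453 other listed miRNAs. In the 50 most abundant it was the first in 27 of 41 (65.9%), and miRNAs that began with it held 66.3% of the counts of those with a sequence. None of the 41 began with G, which was the first base of 8.11% of the miRNAs described and of 13.6% of the others. A length of 22 bases was found in 57.7% and 43.0%, respectively, and the median GC content was 47.6% and 52.4%. The authors counted reads of 20 to 24 bases, and 2.7% of the miRNAs described and 5.71% of the others have a length outside this range. The short motif GGAG occurred in 6.76% of them, in 15.3% of the other listed miRNAs and in none of the 41, and CCCU in 9.91%, 11.6% and 12.2%. Both were searched as written on the mature strand, at any position. These shares are descriptions, since related miRNAs share sequence and adapter ligation can depend on end bases, which was not tested.

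The arms were represented by nearly equal numbers of miRNAs but by unequal counts. Of the 258, 125 were 3p, 6 have no arm in their name, and the remainder were 5p. The 6 are miR-451a, which is cut by Argonaute 2 and has no partner arm, miR-484, miR-378c, miR-8112, miR-8114 and miR-5113. The 5p miRNAs held 64.2% of the counts, the 3p miRNAs 31.8% and those without an arm 3.76%. Among the 20 most abundant, 13 were 5p and 6 were 3p, and the median of the mean CPM was 308.5 for 5p and 141.2 for 3p miRNAs.

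Over all miRNAs with an arm in their name, the 5p share was 66.8% ± 5.18 (SD, n = 6). It was 59.9% in replicate 5, 61.4% in replicate 3, 67.6% in replicate 2, 67.7% in replicate 4, 71.6% in replicate 6 and 72.7% in replicate 1. The 5p arms were ahead in 6 of 6 libraries, with a log2 ratio of 5p to 3p counts of 1.02 ± 0.34. In an exact two-sided permutation test over the 64 sign assignments of the log2 ratio, p = 0.03125, the smallest value that 6 libraries can give. The size of this value depended in part on abundant 5p miRNAs. Without let-7 miRNAs the log2 ratio was 0.58 and the 5p share 59.7%, and without miR-122-5p the log2 ratio was 0.83. In both cases 5p was ahead in 6 of 6 libraries by the same test, with the same p.

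For single hairpins, counts of both arms were compared within each mouse with edgeR's quasi-likelihood test, with the mouse as a block. The call needed an adjusted p (Benjamini-Hochberg) under 0.05 together with a difference of 1.5-fold or more. Hairpins were tested when at least 1 arm was among the 258, and names that share an arm were summed. Of 189 hairpins, 75.1% were called, 78 with 5p higher (41.3%) and 64 with 3p higher (33.9%). A hairpin that entered through 1 arm only is uneven by that choice, which held for all but 63 of them, so that this count says little about arms in general. Over all 296 hairpins with a count in either arm, 43.2% were called. For 80 of the 189 the minor arm had no count in any library.

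In 63 hairpins both arms were among the 258. Fitted on their own, 46 were called (73.0%), 31 with 5p higher (49.2%) and 15 with 3p higher (23.8%). The same arm was higher in 6 of 6 libraries for 45 of the 63, which were 30 with 5p and 15 with 3p. The difference was over 10-fold in 35 and under 2-fold in 9.

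Among the called hairpins, those with the largest fitted differences in favour of 5p were let-7f, let-7g, miR-30d, miR-26a and miR-192, and the 3p arms of all 5 had no count in any library. Against a limit of 3 counts over the 6 libraries, let-7f-5p with 23268 counts was at least 7756-fold higher than its 3p arm, let-7g-5p at least 5904-fold, miR-30d-5p at least 3583-fold, miR-26a-5p at least 3107-fold and miR-192-5p at least 1819-fold. In favour of 3p they were miR-1a, miR-92a, miR-29a, miR-128 and miR-320, whose 5p arms had no count. Here miR-1a-3p with 32151 counts was at least 10717-fold higher than its partner, miR-92a-3p at least 4211-fold, miR-29a-3p at least 2751-fold, miR-128-3p at least 2649-fold and miR-320-3p at least 2069-fold. All 10 hairpins were tested through 1 arm only and chosen for their fitted difference, which is no bound where an arm has no count, so that they are not shown to be the most uneven hairpins. Their values are a description and no test is given. The limit of 3 counts covers counting error only and not the further spread between libraries, so that these lower bounds hold under counting error alone.

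Some minor arms were themselves well counted. At miR-24, whose 3p arm had 30021 ± 7475 CPM (SD, n = 6), the 5p arms together had 2155 ± 1027 CPM, a difference of 3.95 ± 0.78 on the log2 scale (SE, adjusted p = 4.14e-05 by edgeR). The lowest library of the major arm was above the highest of the minor arm. The endothelial miR-126a had 3035 ± 1169 CPM on 3p and 508 ± 315 CPM on 5p, a 6.93-fold difference (adjusted p = 0.000846 by edgeR). In miR-142a, a miRNA of blood cells, 5p was ahead with 2523 ± 1244 against 432 ± 298 CPM (adjusted p = 0.00299 by edgeR).

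In 2 hairpins, let-7d and miR-423, both arms were among the 50 most abundant miRNAs.
let-7d-5p: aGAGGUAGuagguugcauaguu
let-7d-3p: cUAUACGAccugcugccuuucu
miR-423-5p: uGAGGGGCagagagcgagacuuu
miR-423-3p: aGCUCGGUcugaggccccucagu
The arms have different seeds, so that neither arm of a hairpin belongs to the family of the other. For let-7d, the 5p arm had 10980 ± 3836 CPM and the 3p arm 4109 ± 1857 CPM. In replicate 4 the 3p arm was ahead, with 7271 against 4485 CPM, and in the other 5 libraries the 5p arm was, with 8662 to 14995 against 2274 to 5298 CPM. The difference was 1.48 ± 0.73 on the log2 scale and was not called (edgeR adjusted p = 0.0653). Without replicate 4 it was 1.85 and called (edgeR adjusted p = 0.00655), and in the fit on 63 hairpins it was called as well (adjusted p = 0.036).

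For miR-423 the 5p arm was ahead in 6 of 6 libraries, with 10523 ± 3216 against 4144 ± 1730 CPM. The log2 ratio of single libraries varied little, from 1.17 to 2.04, with replicate 4 the highest. With a fitted difference of 1.42 ± 0.67 it narrowly missed the threshold over 189 hairpins (edgeR adjusted p = 0.0551) and passed it over 63 (adjusted p = 0.0176). Without replicate 4 it was also called (edgeR adjusted p = 0.027).

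In other well counted hairpins the arms were closer in level or the call depended on the fit. For miR-151 the arms had 1657 ± 743 CPM (5p) and 1087 ± 477 CPM (3p), with a log2 difference of 0.63 ± 0.67, and for miR-106b they had 1202 ± 469 and 1056 ± 642 CPM, with 0.36 ± 0.69. Neither was called by edgeR (adjusted p = 0.373 and 0.629), and the standard errors leave room for a difference of more than 1.5-fold in both. In the red cell miR-144 hairpin, 5p had 1453 ± 1078 and 3p 431.5 ± 141.2 CPM, with 5p ahead in 5 of 6 libraries. The 2.95-fold difference was not called over 189 hairpins (edgeR adjusted p = 0.0547) and was called over 63 (adjusted p = 0.0332) and without replicate 4 (adjusted p = 0.0201).

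**Figure D3:**
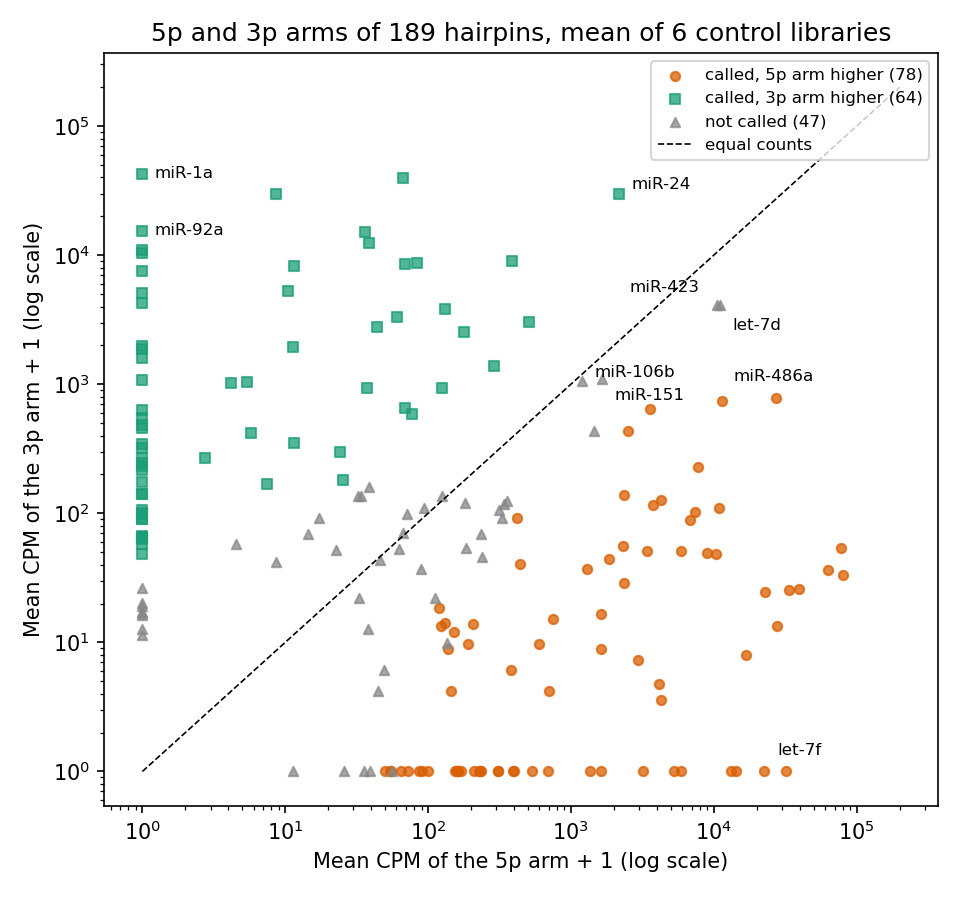
Mean CPM of the 3p arm against that of the 5p arm (both + 1, log axes) for 189 hairpins, with symbols for the 78 called with 5p higher, the 64 called with 3p higher and the 47 not called, and a dashed line at equal counts. Hairpins on the lower and left edges have a minor arm without a count, and let-7d, miR-423, miR-151 and miR-106b lie near the line.

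Hairpins of members were placed on GRCm38 with the Gencode annotation, which matched 244 of the 258. Of their hairpins, 105 lay in introns, 65 in exons (of noncoding host transcripts or of coding genes) and 51 outside other genes on the same strand. In the largest local group by counts, at chr13:48536012-48538272 on the minus strand, the hairpins of let-7a, let-7f and let-7d lie in the lincRNA 6720427I07Rik, and its mature miRNAs held 8.69% of the counts. As let-7a and let-7f also have a second hairpin elsewhere, this share cannot be given to 1 locus. At chr8:84208518-84208921 on the plus strand lie the hairpins of miR-23a, miR-27a and miR-24. Their mature miRNAs held 7.74%, which cannot be given to 1 locus either, since miR-24 has a second hairpin on chromosome 13.

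The hairpins of miR-451a (chr11:78073170-78073241) and miR-144 (chr11:78073005-78073070) lie side by side on the plus strand outside other genes, and miR-451a had 33893 ± 13024 CPM against 1453 ± 1078 CPM of miR-144-5p, the higher arm of its neighbour.

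The spread between mice was large compared with counting error. The coefficient of variation (CV, SD over mean of CPM) had a median of 68.9% over the 258 miRNAs, where counting alone gives a median of 20%. For the 87 miRNAs with a mean count of at least 100 the median CV was 38.4%, against 4.61% from counting. All 87 exceeded their counting CV, by at least 2.99 times. The counting CV takes each read as an independent molecule. Removal of PCR duplicates is not given in the sources used here, so that the counting CV may be too low. Mouse, EV isolation and library cannot be told apart in the spread between libraries, as each mouse gave 1 library.

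The most even of the 87 was let-7c-5p, with a CV of 13.3%. It had 22379 CPM in the lowest library, a median of 27244 and 32679 in the highest, and its rank was 9 to 11 in all 6. It was followed by miR-26b-5p (15.8%), miR-30c-5p (16.0%), miR-342-3p (20.9%) and miR-186-5p (21%). The lowest and highest libraries differed by 1.61-fold for miR-26b-5p and by 1.45-fold for miR-30c-5p. The PCR reference miR-103-3p had a CV of 36.6%, close to the median of the 87, with 946 to 2440 CPM and a mean count of 204.

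The most variable of the 87 were miR-122-5p (101%), miR-143-3p (91.8%), miR-144-5p (74.2%), miR-192-5p (71.4%) and miR-133a-3p (69.3%). For miR-143-3p, replicate 4 had 80227 and replicate 5 43777 CPM, and the other 4 had 8499 to 18857 CPM. For miR-144-5p, replicate 5 had 3509 CPM and the others 514 to 1649 CPM. The libraries with the highest values differed between these miRNAs but overlapped. Replicates 1, 4 and 6 were the highest for both miR-122-5p and miR-192-5p, and replicate 5 was the highest for both miR-144-5p and miR-133a-3p. Replicates 1 and 6 were highest for miR-192-5p (10456 and 11818 CPM, against 1843 to 5014 in the others), and replicates 3 and 5 for miR-133a-3p (22216 and 23935 CPM, against 4008 to 8850).

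Some miRNAs were missing from 1 library at a level well above its limit. In replicate 4, miR-541-5p, miR-674-5p, miR-15a-5p and miR-181d-5p had no count, where the mean CPM of the other 5 libraries would give 49.7, 46.3, 37.1 and 36.7 counts. In replicate 1, miR-20a-5p, miR-218-5p and miR-181c-5p had no count, where 65.8, 51.1 and 43.3 counts would be given.

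**Figure D4:**
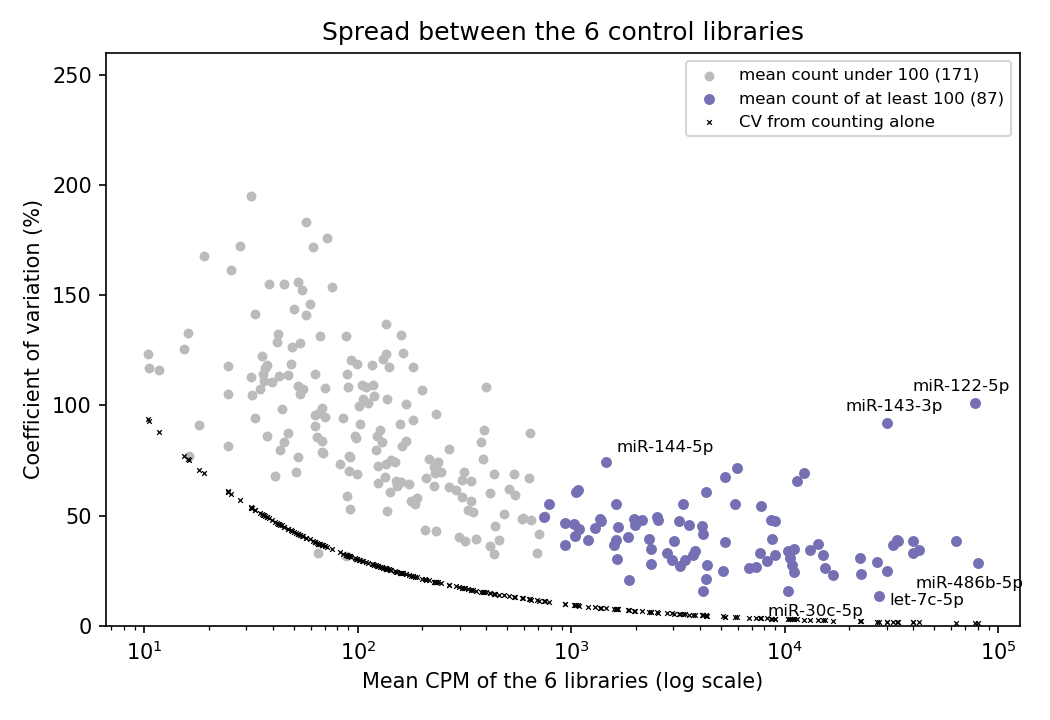
CV between the 6 libraries (y axis, %) against mean CPM (x axis, log scale) for the 258 miRNAs, with the 87 with a mean count of at least 100 in violet, the 171 others in grey and the CV that counting alone gives as crosses. All 87 lie above their crosses, from let-7c-5p at 13.3% to miR-122-5p at 101%.

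To describe which tissues are represented, 11 lists of miRNAs known from blood cells or tissues were summed. They hold 104 miRNAs, of which 66 were among the 258, and 11 of the 20 most abundant were on a list. The lists share miRNAs and none is exclusive to its tissue, and in EVs the number of vesicles of a source and the RNA per vesicle cannot be told apart. As no samples were compared, the shares are descriptions. Their order and range follow.

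By the mean of the 6 libraries, red cell miRNAs held the largest share, 18.4% ± 3.51 (13.7% to 23.7%, median 17.7%), and all 8 were among the 258. By library they were ahead in replicates 1 and 5, whereas the platelet list was ahead in replicates 2, 3 and 6 and the liver list in replicate 4 (16.9% against 16.7%). Of the red cell share 43.5% was miR-486b-5p, and without it the list held 10.4%, with miR-486a-5p still included. The log2 ratio of miR-451a to miR-23a-3p, a measure used for haemolysis, was -0.21 ± 0.97. It was highest in replicate 4 (1.32) and lowest in replicate 6 (-1.18), and the part of haemolysis in these shares was not tested. The 8 platelet miRNAs, of which miR-21a-5p, expressed in many cell types, was the most abundant, held 15.6% ± 3.36 (12.1% to 19.0%). Without miR-21a-5p they held 9.25%. Serum is collected after clotting, in which platelets and other blood cells release RNA.

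The liver list held 8.90% ± 8.24 and varied with miR-122-5p, from 0.858% in replicate 2 to 17.6% in replicate 1. Its other members were at lower levels. The list holds miR-148a-3p (5124 ± 1276 CPM), miR-192-5p (5934 ± 4238 CPM), miR-194-5p (537 ± 370 CPM) and miR-122-3p (52.5 ± 57.2 CPM). The latter was without a count in 2 libraries. Replicates 1, 4 and 6, in which miR-122-5p was high, were also the 3 highest for miR-192-5p, miR-194-5p and miR-122-3p, whereas miR-148a-3p had 5229 to 6012 CPM in 5 libraries and 2580 CPM in replicate 2. Whether more liver RNA entered the serum of these mice was not tested.

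Muscle miRNAs held 5.58% ± 2.0 (3.42% to 9.02%). The 2 that heart and skeletal muscle share, miR-1a-3p (42672 ± 14644 CPM) and miR-133a-3p (12324 ± 8539 CPM), made up nearly all of it. The skeletal muscle miRNA miR-206-3p had 630 ± 422 CPM and a count in every library. Of the miRNAs within myosin genes, miR-499-5p had 117.8 ± 128.5 CPM and no count in 2 libraries, and miR-208a-3p and miR-208b-3p had no count in any library. The vascular list held 4.85% ± 2.46 and was led by miR-143-3p, without which it held 1.85%. Endothelial miR-126a-3p had 3035 ± 1169 CPM and miR-221-3p 8604 ± 4127 CPM.

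Leukocyte miRNAs held 1.46% ± 0.289, with 9 of 10 among the 258. The most abundant were miR-223-3p (3809 ± 1294 CPM), miR-146a-5p (3210 ± 872 CPM), miR-142a-5p (2523 ± 1244 CPM) and the lymphocyte miRNA miR-150-5p (2305 ± 905 CPM). The inflammation-induced miR-155-5p had 85.1 ± 80.4 CPM and no count in 1 library. Replicate 1 was the lowest library for this list, with 0.895% against 1.48% to 1.69% in the others.

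Gut and kidney miRNAs held 1.08% ± 0.44 and were mostly miR-192-5p, also on the liver list, and miR-215-5p (4279 ± 2593 CPM). The epithelial list held 0.419% ± 0.124, of which the skin miRNAs miR-203-3p (1957 ± 943 CPM) and miR-205-5p (1615 ± 628 CPM) were the most abundant. The miR-200 family members were lower, with 232.7 ± 223.3 CPM for miR-200a-3p and 141.2 ± 85.5 CPM for miR-200c-3p. For miR-200b-3p it was 180.9 ± 168.9 CPM with no count in 1 library, and for miR-429-3p 57.2 ± 80.7 CPM with none in 2. Their relative miR-141-3p had 2 counts in replicate 3, no count in 5 libraries, and was not among the 258. In the pancreatic list the islet miRNA miR-375-3p had 543.3 ± 321.2 CPM, and of the acinar miRNAs miR-216a-5p and miR-217-5p had no count, while miR-216b-5p had up to 8 counts in 2 libraries and none in the other 4.

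The brain list held 1.08% ± 0.374, but nearly all of it was miR-128-3p (10304 ± 3479 CPM), whose hairpins lie in introns of R3hdm1 and Arpp21. Without it the list held 0.0527%. Of the other miRNAs of the list, miR-9-5p had 236 ± 176 CPM, miR-218-5p 162 ± 200 CPM with no count in 1 library, miR-132-3p 65.3 ± 21.7 CPM with a count in every library, and miR-9-3p 45.2 ± 70.2 CPM with no count in 3. Counts were found in 1 library each for miR-219a-5p (22 counts) and miR-124-3p (3 counts), and miR-129-5p, miR-137-3p, miR-138-5p and miR-153-3p had no count. From the imprinted Dlk1-Dio3 cluster a list of 38 miRNAs was used, which holds 1 arm of most hairpins. Of these, 14 were among the 258 and 10 had no count, and all together held 0.277% ± 0.103. Arms outside the list, such as miR-136-3p (214.9 ± 162 CPM), also had counts. The highest were miR-434-3p (935 ± 344 CPM), miR-382-5p (172 to 553 CPM) and miR-541-5p (309 ± 204 CPM).

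**Figure D5:**
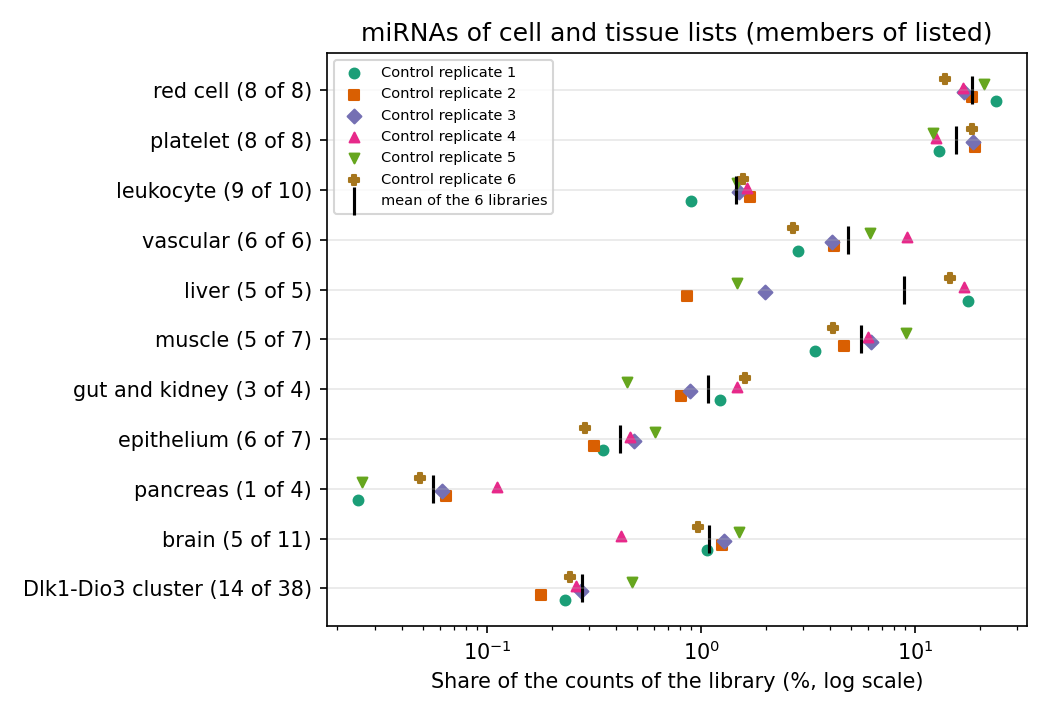
Share of the counts of each library (x axis, %, log scale) held by 11 lists of miRNAs known from cells or tissues (y axis, with the number among the 258 of the number listed), with 1 symbol per control library and a vertical bar at the mean. Red cell and platelet miRNAs lie above 12% in all 6 libraries, and liver miRNAs range from 0.858% to 17.6%.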

How the data were processed

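Small RNA from serum EVs of 6 Control mice was analysed here. The authors removed adapter sequence, mapped the reads to the mouse genome (GRCm38, mm10 per the labels), kept those of 20 to 24 bases and assigned them to miRBase mature miRNAs. These whole-number counts were deposited without normalization. Removal of PCR duplicates and the treatment of reads that match several miRNAs are not given in the sources used here. Labels give 1 sample per mouse.

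CPM are counts over column totals, and a miRNA was kept at 10 CPM in 3 or more libraries. The miRNAs and lists were chosen with earlier results of these data known. Named miRNAs are the 20 with the highest mean, the 5 with the highest and lowest CV among those with a mean count of at least 100, members of the lists, the PCR reference, those next to the CPM minimum and those among the first 20 of 1 library. Named hairpins are the 5 with the largest fitted difference among those called in each direction and those with both arms among the first 50. Others named, such as miR-24, miR-126a, miR-142a, miR-151, miR-106b and miR-144, and the miRNAs without a count in 1 library, were chosen after their values were seen.

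Arms were compared in edgeR 4.0.16 (R 4.3.3) with counts per arm, library totals and the mouse as a block, since both arms come from the same library. limma 3.58.1 and DESeq2 1.42.0 were alternatives. Sequences are from RefSeq (GRCm38.p6) and positions from Gencode. No column lacked a sample, and no libraries were identical.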

Additional observations from a re-analysis of the deposited data

Results flagged for a closer look

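For 115 values (named miRNAs, list and family shares, arm ratios and library measures), the distance of the highest or lowest of the 6 libraries to its nearest neighbour was divided by the whole range. In 11 of them 1 library stood apart by Dixon's criterion, which chance alone flags in about 1 in 20 (5.75 of 115). That rate assumes values with a normal distribution, which CPM need not have. Over all 258 miRNAs the same criterion flagged 29 (11.2%), where that rate gives 12.9. For each of the 11 values, the distance as a fraction of the range is given below.

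Replicate 4 was the library that stood apart in 6 of the 11. Of the 29 flagged over all 258 miRNAs, replicate 4 held 8 and each other library 2 to 6. Among the 11, replicate 4 was high for let-7g-5p (36035 CPM, fraction 0.69) and miR-16-5p (16792 CPM, fraction 0.79). It was also high for miR-429-3p (29 counts, fraction 0.783) and the arm ratio of miR-423 (log2 2.04, fraction 0.689). It was low for the arm ratio of let-7d (log2 -0.70, fraction 0.626) and for its median Spearman's rho with the other libraries (0.796, fraction 0.775).

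Replicate 1 was high in total counts (263211, fraction 0.647) and low in the share of leukocyte miRNAs (0.895%, fraction 0.732). Replicate 5 was high for miR-411-5p (42 counts, fraction 0.793) and for the share of the Dlk1-Dio3 cluster (0.475%, fraction 0.672). Replicate 2 was low for miR-148a-3p (2580 CPM, fraction 0.772).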

How the results depend on the processing

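Of 586 recomputed values, 554 stayed within 1 SD, within 1.5-fold for counts, or on the same side of the threshold. None reversed, but only arm ratios could reverse. Leaving out 1 of 6 libraries cannot move the mean share of a miRNA or list by 1 SD. Those values were bound to stay within it, so that the total says little about stability. The 258 miRNAs are 13.1% of those listed, and this share depended on the rule. It was 7.32% with 10 CPM in 6 of 6 libraries, 22.3% with 10 CPM in at least 1, 22.7% with at least 1 count, and 12.1% to 12.7% without each library in turn. Of the 20 most abundant miRNAs, 19 or 20 were kept under every other scaling, with medians and without each library. The median CV was 45.7% for miRNAs with 10 CPM in all 6 libraries and 38.4% at a mean count of at least 100, since fewer low counts enter. It was 63.2% to 66.4% without each library. The log2 ratio of 5p to 3p counts was 0.94 to 1.11 without each library, where 5 libraries cannot give an exact p below 0.0625.

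The fit limited to hairpins with both arms among the 258 called 31 with 5p and 15 with 3p higher, and fewer hairpins were tested by construction. Without the replicate block (the mouse), 87 were called with 5p and 73 with 3p higher, and without each library 70 to 77 and 57 to 62. The arm differences of let-7d and miR-423 were called with DESeq2, with limma on log2 ratios, without the block, on 63 hairpins and without replicate 4.

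Lists without their most abundant miRNA held 10.4% (red cell), 9.25% (platelet), 1.08% (leukocyte), 1.85% (vascular), 1.31% (muscle), 0.483% (gut and kidney), 0.223% (epithelium), 0.00179% (pancreas) and 0.0527% (brain). This alternative and that without miR-122-5p in the totals were chosen after seeing the data. Under the latter the liver list held 1.30%.

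At this depth a miRNA below 11.4 to 46.9 CPM cannot be told from one without reads in a single library, and the 30 miRNAs with a mean count below 5 rest on few reads.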
